A study of Homo sapiens with 20 samples.

Results

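MDA-MB-231 is an established human breast cancer cell line that is widely used as a model of invasive and metastatic triple-negative breast cancer (TNBC), the disease that lacks the estrogen receptor, the progesterone receptor and HER2 amplification. Its untreated RNA profile was set against that of BT549 and MDA-MB-157, the other lines of the series that are classed as mesenchymal-like. This class of TNBC is known for RNAs of cell motility, of the extracellular matrix and of the epithelial-to-mesenchymal transition, the program by which epithelial cells loosen their junctions and gain migratory features. The arrays were chosen by their line and treatment labels, which gave 6 of the 20 arrays of the series, 2 of untreated MDA-MB-231, 2 of untreated BT549 and 2 of untreated MDA-MB-157. The other 14 arrays are of the same 3 lines after wound healing fluids (WHFs, 5% for 48 h) and of the basal-like lines MDA-MB-468 and SUM 149. All cultures were kept for 24 h in serum-free medium, and the untreated ones received no WHFs afterwards. Each line comes from 1 tumor, so a difference between lines is a difference between 3 cultures of unlike origin. MDA-MB-231 and BT549 were maintained in RPMI medium and MDA-MB-157 in Leibovitz medium.

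All arrays of MDA-MB-231 lay on 1 beadchip, and BT549 and MDA-MB-157 shared another. Chip and line cannot be told apart in any difference given here. The replicate cultures A and B of a line correlated at 0.989 to 0.992 over the tested probes, and arrays of MDA-MB-231 correlated with those of the other lines at 0.827 to 0.852. Between 20844 and 21611 probes were above background on the untreated MDA-MB-231 arrays, against 20793 to 22865 on those of BT549 and MDA-MB-157.

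A beadchip carries 47319 oligonucleotide probes on beads, and the fluorescence of each probe follows the amount of bound, labelled RNA. All levels here are log2 intensities after background correction and quantile normalization, and all differences are MDA-MB-231 minus the other line on that scale, so that 1 unit is a 2-fold difference. A probe was called when it differed by more than 2-fold, in the same direction, from BT549 and from MDA-MB-157, with an adjusted p under 0.1 in each of the 2 limma contrasts. The p-values measure the spread between replicate cultures only, since 1 line against 2 allows no test over lines. Where a probe was not above background on either array of a line, the fold is a lower bound, set against the lowest signal above background on those arrays or the probe's own signal if higher. Each pair of values in brackets is against BT549 and then against MDA-MB-157, as a log2 difference or, where a bound applies, as a fold of the brighter line over the dimmer one.

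Of 24311 tested probes, 1736 were higher in untreated MDA-MB-231 than in both other lines (7.14%) and 1352 were lower (5.56%). With 1 probe per gene, 1069 of 13319 genes were higher (8.03%) and 870 were lower (6.53%). Against BT549 alone 6433 probes were called (26.5%) and against MDA-MB-157 alone 7061 (29%), and 316 probes lay between the other lines, higher than one and lower than the other. By the same rule 2656 probes set BT549 apart from its 2 counterparts and 3259 set MDA-MB-157 apart, against 3088 for MDA-MB-231. Of the higher probes, 534 were above background on both MDA-MB-231 arrays and on none of the other 4, and 456 of the lower ones showed the opposite pattern. In all, 658 of the higher probes entered the test through MDA-MB-231 alone.

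**Figure D1:**
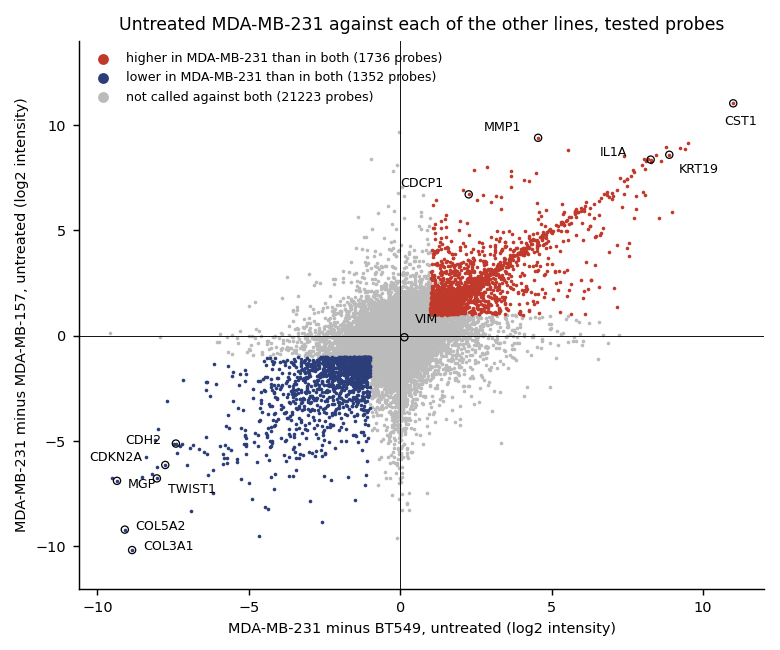
Differences of the tested probes between untreated MDA-MB-231 and BT549 (x axis) and between untreated MDA-MB-231 and MDA-MB-157 (y axis), in log2 intensity. Red and blue points are the 1736 higher and 1352 lower probes, and circles mark named genes, with CST1 at the upper right, COL3A1 at the lower left and VIM near the origin.

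The gene that stood furthest above both lines was CST1, which encodes cystatin SN, a secreted inhibitor of cysteine proteases. It read 15.76 and 15.74 in MDA-MB-231, against 4.75 and 4.75 in BT549 and 4.70 and 4.74 in MDA-MB-157. CST1 was among the brightest probes of MDA-MB-231 and at background in BT549, in MDA-MB-157 and also in MDA-MB-468 (mean 4.62) and SUM 149 (mean 4.71). The level was at least 1100 times that of BT549 and at least 1210 times that of MDA-MB-157. CST1 entered the test through MDA-MB-231 alone, so that it could only be higher. Its relative CST4 followed, at 13.32 and 13.03 in MDA-MB-231, against 5.34 and 5.60 in BT549 and 5.17 and 5.43 in MDA-MB-157. Probes of the cystatin S family can share labelled RNA because their sequences are alike, and the same holds for the trypsinogens PRSS2 (at least 160-fold and at least 175-fold higher) and PRSS3 (at least 166-fold and at least 182-fold higher).

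KRT19, a keratin of simple and luminal epithelia, read 13.75 and 13.93 in MDA-MB-231, against 4.89 and 5.01 in BT549 and 5.41 and 5.09 in MDA-MB-157. No other keratin separated the lines as far, and its levels in the basal-like lines (14.45 in MDA-MB-468 and 12.74 in SUM 149) were near those of MDA-MB-231. LCN2, which encodes the iron-trafficking protein lipocalin 2, read 13.82 and 13.90 in MDA-MB-231, against 5.47 and 5.33 in BT549 and 5.31 and 5.27 in MDA-MB-157. LCN2 was also high in MDA-MB-468 (mean 13.13) and SUM 149 (mean 15.66). Both genes were at background on all 4 arrays of BT549 and MDA-MB-157, and MDA-MB-231 exceeded BT549 and MDA-MB-157 by at least 294-fold and 322-fold for KRT19 and by at least 297-fold and 326-fold for LCN2. SAA1, an acute phase protein, read 12.90 and 13.34 in MDA-MB-231, against 5.06 and 4.91 in BT549 and 4.79 and 4.82 in MDA-MB-157. Its means in MDA-MB-468 and SUM 149 were 10.22 and 14.31.

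Both genes of the interleukin-1 agonists belonged to the 12 leading genes. IL1A read 13.01 and 12.99 in MDA-MB-231, against 4.70 and 4.74 in BT549 and 4.64 and 4.64 in MDA-MB-157. IL1B read 12.76 and 13.51 in MDA-MB-231, against 5.13 and 5.01 in BT549 and 4.71 and 4.83 in MDA-MB-157. Neither was above background in BT549, MDA-MB-157 or MDA-MB-468, whereas SUM 149 reached 12.82 for IL1A and 12.29 for IL1B. The bounds over BT549 and MDA-MB-157 were 164-fold and 180-fold for IL1A, and 181-fold and 198-fold for IL1B.

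The remaining leading genes were ADGRF5, RAC2 and CD74. ADGRF5, an adhesion G protein-coupled receptor, read 13.36 and 13.46 in MDA-MB-231, against 4.79 and 4.83 in BT549 and 5.24 and 4.98 in MDA-MB-157, and was at background in both basal-like lines as well. RAC2, a small GTPase best known from blood cells, read 13.67 and 13.96 in MDA-MB-231, against 5.88 and 5.57 in BT549 and 5.68 and 6.13 in MDA-MB-157. RAC2 was also high in MDA-MB-468 (mean 11.38) and SUM 149 (mean 12.24). CD74, the invariant chain that escorts HLA class II molecules, read 12.19 and 12.77 in MDA-MB-231, against 5.43 and 5.02 in BT549 and 5.03 and 4.93 in MDA-MB-157. In all 12 leading genes the lowest MDA-MB-231 array lay far above the highest of the other 4. This follows from their choice by the size of the differences on these same arrays. All but RAC2 were at background in BT549 and MDA-MB-157 and entered the test through MDA-MB-231 alone, so that they could only be higher.

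**Figure D2:**
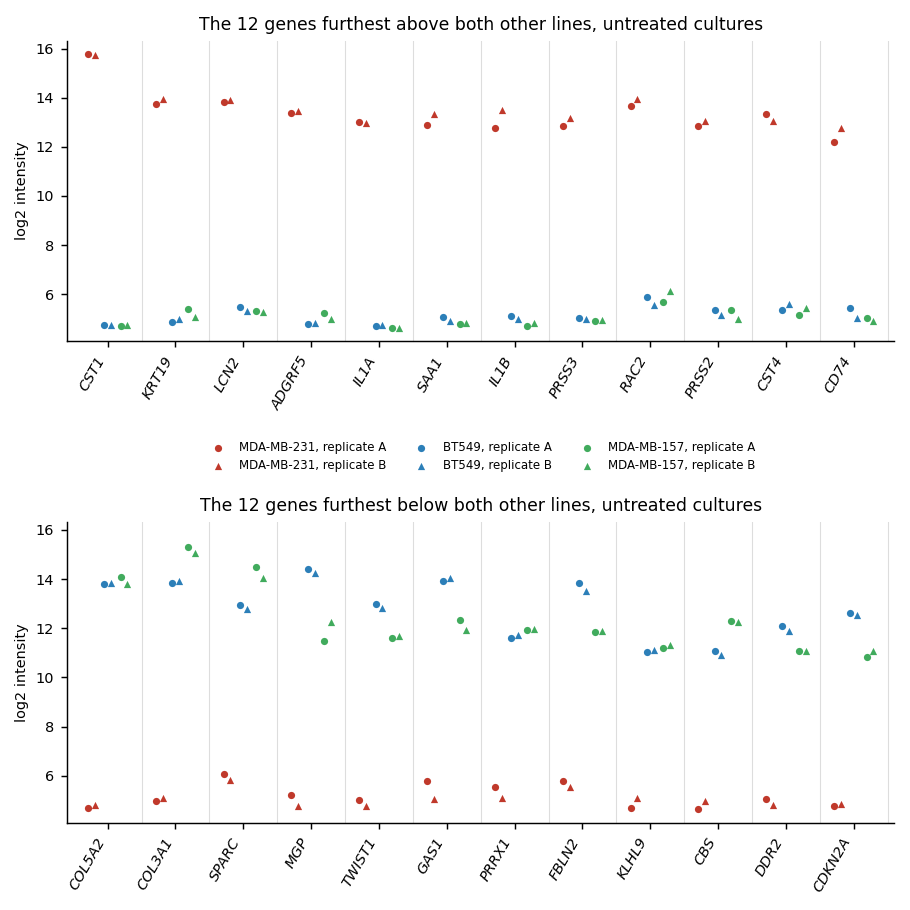
Log2 intensity (y axis) of the 12 genes furthest above and the 12 furthest below both other lines on the 6 untreated arrays, ordered by the smaller of the 2 differences. Each point is 1 array, with circles for replicate A and triangles for replicate B. In no gene does an MDA-MB-231 array overlap the other 4, which follows from the choice of the genes by these differences.

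The genes furthest below both lines were mostly genes of the fibrillar matrix and of mesenchymal transcription. COL5A2, a chain of collagen V, read 4.67 and 4.81 in MDA-MB-231, against 13.81 and 13.86 in BT549 and 14.07 and 13.81 in MDA-MB-157. COL3A1, the chain of collagen III, read 4.97 and 5.09 in MDA-MB-231, against 13.86 and 13.91 in BT549 and 15.32 and 15.08 in MDA-MB-157. Neither was above background in MDA-MB-231, so that BT549 exceeded it by at least 290-fold for COL5A2 and 300-fold for COL3A1, and MDA-MB-157 by at least 312-fold and 749-fold. SPARC, a matrix glycoprotein that binds collagen, remained weakly detected in MDA-MB-231 and read 6.08 and 5.83 in MDA-MB-231, against 12.96 and 12.79 in BT549 and 14.51 and 14.06 in MDA-MB-157. MGP, the matrix Gla protein that inhibits calcification, read 5.20 and 4.76 in MDA-MB-231, against 14.42 and 14.25 in BT549 and 11.50 and 12.24 in MDA-MB-157, with 15.15 in MDA-MB-468. FBLN2, an elastic fiber protein, and DDR2, a tyrosine kinase receptor for fibrillar collagen, were lower as well (FBLN2 -8.02 and -6.21 log2, DDR2 at least 80-fold and at least 42.9-fold). GAS1, a membrane protein named for growth arrest, was another (-8.54 and -6.70 log2). Last, CBS, the enzyme that makes cystathionine from homocysteine and serine, read 4.66 and 4.96 in MDA-MB-231, against 11.07 and 10.93 in BT549 and 12.31 and 12.23 in MDA-MB-157. Several of these genes were also low in MDA-MB-468 and SUM 149, with means of 6.07 and 5.11 for COL5A2, 5.34 and 6.03 for COL3A1 and 5.12 and 5.28 for SPARC. Low levels of these 3 were thus not particular to MDA-MB-231. Others were higher there, such as GAS1 (7.70 and 10.47) and CBS (12.87 and 6.39).

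Of the 55 genes of the matrix list 46 were tested, 22 of which were lower and 5 higher, with 19 not called, and the median log2 difference was -2.00 from BT549 and -1.85 from MDA-MB-157. The medians over all tested genes were -0.03 and -0.02, and 14.6% of those genes were called in either direction. In the matrix list 58.7% were called, and 1 tested gene entered only through MDA-MB-231. COL1A1, a chain of the main collagen of connective tissue, read 6.30 and 6.60 in MDA-MB-231, against 11.56 and 11.15 in BT549 and 14.33 and 14.02 in MDA-MB-157. Its partner COL1A2 (-7.98 and -4.45 log2), the proteoglycans DCN (at least 11.2-fold and at least 164-fold), BGN (at least 14.2-fold and at least 408-fold) and VCAN (at least 55.3-fold and at least 32.7-fold) and the microfibril protein FBN2 (at least 40.2-fold and at least 47.7-fold) were lower too. The collagen IV chains of the basement membrane, COL4A1 (-2.22 and -3.05 log2) and COL4A2 (-1.94 and -2.97 log2), had smaller differences. The matrix genes that were higher had other roles or places. LAMB3, a chain of the laminin that anchors epithelial cells, read 13.07 and 13.66 in MDA-MB-231, against 5.94 and 5.22 in BT549 and 7.08 and 7.60 in MDA-MB-157. COL13A1, a membrane-spanning collagen (3.17 and 4.61 log2), and COL8A1, a short-chain collagen (1.87 and 3.09 log2), were higher as well.

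Of 12 fibroblast markers, 8 were lower and 0 higher, which is 66.7% called against 14.6% of all genes. Among the lower ones was PDGFRA, the receptor for platelet-derived growth factor. It read 4.64 and 4.61 in MDA-MB-231, against 7.36 and 6.88 in BT549 and 7.49 and 7.12 in MDA-MB-157. Several of these markers (COL1A1, COL1A2, COL3A1, DCN, PRRX1, TWIST2) also stand in the matrix or the mesenchymal list, so the lists are not separate evidence. Markers of leukocytes and endothelium were also read, as a check of the cultures. PTPRC, a marker of leukocytes, CD3E and CD3D, markers of T cells only, and CDH5, VWF and KDR, markers of endothelium, were not above background on any MDA-MB-231 array. Single markers were higher, such as CD14 (1.76 and 2.19 log2), CD68 (2.35 and 2.18 log2), PECAM1 (2.73-fold and at least 9.79-fold) and ESAM (at least 58.6-fold and at least 64.2-fold). In all, 2 of 7 tested leukocyte markers and 2 of 5 tested endothelial and pericyte markers were higher and 0 lower, out of 16 and 11 listed. These are 28.6% and 40% of the tested markers against 14.6% of all genes. ESAM was tested only through MDA-MB-231, so that it could only be higher, and 2 of 3 tested CD68 probes were called. The part of other cells in the result was not tested.

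VIM, the intermediate filament of mesenchymal cells, was high in all 3 lines. It read 15.49 and 15.53 in MDA-MB-231, against 15.43 and 15.31 in BT549 and 15.62 and 15.54 in MDA-MB-157, without a called difference (adjusted p of 0.638 and 0.81), although at most 97 probes were brighter on any of these arrays, where the scale leaves little room. CDH1, which encodes E-cadherin, was not above background on either array of MDA-MB-231 or BT549 and was on 1 of 2 of MDA-MB-157, so that it was not tested. High VIM and absent CDH1 go with the mesenchymal-like label of MDA-MB-231, whereas several transcription factors and cadherins of that program were low. TWIST1, a factor that represses epithelial genes, read 4.99 and 4.78 in MDA-MB-231, against 13.01 and 12.84 in BT549 and 11.62 and 11.69 in MDA-MB-157. PRRX1, another such factor, read 5.56 and 5.07 in MDA-MB-231, against 11.59 and 11.74 in BT549 and 11.91 and 11.95 in MDA-MB-157. CDH2, which encodes N-cadherin, read 6.0 and 5.94 in MDA-MB-231, against 13.49 and 13.27 in BT549 and 11.26 and 10.93 in MDA-MB-157. TWIST1 and PRRX1 were not above background in MDA-MB-231, and CDH2 was only just above it. In MDA-MB-468 none of the 3 was above background, whereas the means in SUM 149 were 9.67 for TWIST1, 5.50 for PRRX1 and 10.88 for CDH2. Of 24 tested genes of the 30 in the mesenchymal transition list, 9 were lower, among them TWIST2, CDH6, ACTA2, TAGLN, SNAI2 and ZEB2, and 14 were not called, among them FN1 (0.78 and -0.25 log2). In this list 41.7% of the tested genes were called, against 14.6% of all genes. ZEB1 lay between the other lines, at 6.30 and 7.0 in MDA-MB-231, against 8.17 and 8.06 in BT549 and 5.00 and 5.34 in MDA-MB-157. S100A4, a calcium-binding protein linked to motility, was the only higher one and read 14.10 and 14.37 in MDA-MB-231, against 10.19 and 10.11 in BT549 and 12.01 and 12.24 in MDA-MB-157.

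On the epithelial side, 5 of 8 tested keratins and 8 of 20 tested junction and regulator genes were higher in MDA-MB-231 and 0 were lower. That is 62.5% and 40% of the tested genes, against 14.6% of all genes. These lists hold 22 and 40 genes, and 2 of the tested keratins and 4 of the tested junction genes entered only through MDA-MB-231, so that they could only be higher. SPINT2, an inhibitor of membrane-anchored serine proteases of epithelia, read 12.77 and 12.81 in MDA-MB-231, against 4.75 and 4.69 in BT549 and 6.04 and 6.18 in MDA-MB-157. EHF, an epithelial ETS transcription factor, read 10.79 and 11.33 in MDA-MB-231, against 5.29 and 5.27 in BT549 and 5.06 and 5.33 in MDA-MB-157. CLDN7, a claudin of tight junctions, read 11.16 and 11.38 in MDA-MB-231, against 5.03 and 5.12 in BT549 and 6.57 and 5.87 in MDA-MB-157. All 3 were at levels of 9 or more in both basal-like lines. JUP, which encodes plakoglobin (at least 51.5-fold and 6.2-fold), and KRT8, a main keratin of simple epithelium (at least 28.3-fold and 2.19-fold), were higher too. The KRT8 call rested on 1 array, since without replicate B of untreated MDA-MB-157 the smaller log2 difference was 0.90. EPCAM, an epithelial adhesion molecule, separated MDA-MB-231 from BT549 only, at 9.55 and 9.57 in MDA-MB-231, against 5.15 and 5.20 in BT549 and 9.66 and 9.37 in MDA-MB-157. The epithelial splicing regulators ESRP1 and ESRP2 and the factors GRHL2 and OVOL1 were not above background in MDA-MB-231.

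**Figure D3:**
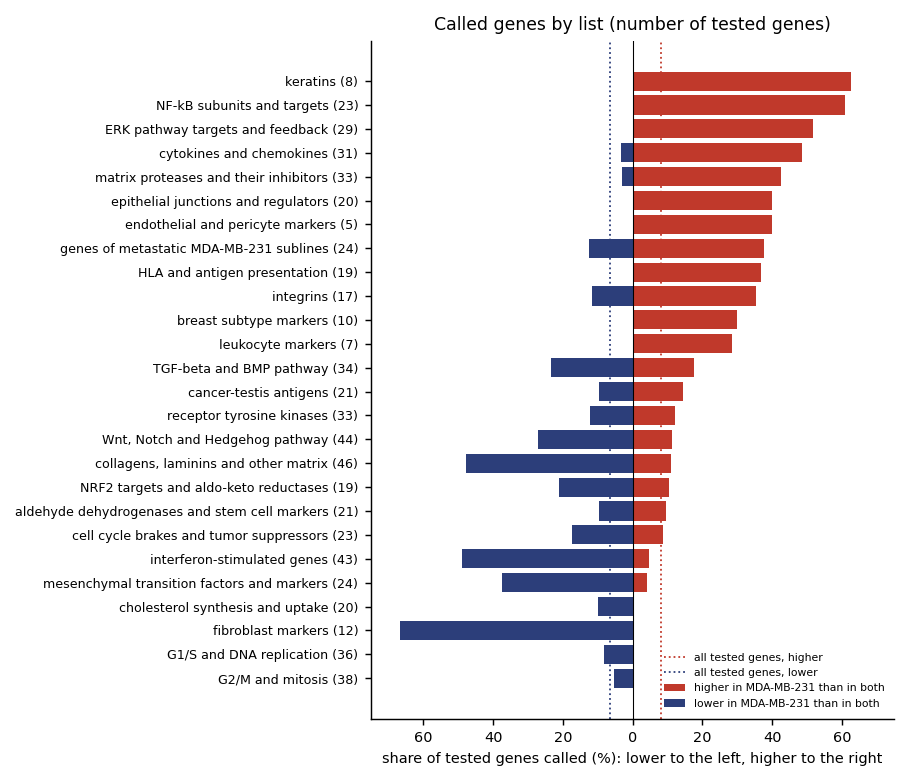
Share of the tested genes of each list (y axis, number of tested genes in brackets) that was called higher in untreated MDA-MB-231 than in both other lines (red, to the right) or lower (blue, to the left). Dotted lines give the shares over all tested genes, 8.03% and 6.53%, and the 22 lower matrix genes and 14 higher NF-kB genes stand on opposite sides.

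Among extracellular proteases and their regulators, most calls were in the higher direction. Of 33 tested genes of 38 listed, 14 were higher, 1 was lower and 18 were not called. That is 45.5% called against 14.6% of all genes. Of those tested, 4 entered only through MDA-MB-231, so that they could only be higher. MMP9, a gelatinase, read 12.10 and 12.16 in MDA-MB-231, against 4.65 and 4.61 in BT549 and 5.12 and 4.89 in MDA-MB-157. MMP1, the interstitial collagenase, read 14.68 and 14.74 in MDA-MB-231, against 10.49 and 9.82 in BT549 and 5.46 and 5.17 in MDA-MB-157. MMP1 thus had 3 separate levels, with MDA-MB-231 highest, BT549 between and MDA-MB-157 at background (at least 589-fold lower). F3, the tissue factor that starts coagulation, and TFPI2, a Kunitz-type protease inhibitor, were higher (F3 5.64 and 5.65 log2, TFPI2 5.79 and 6.03 log2). PLAT (7.49 and 4.16 log2) and PLAU (1.36 and 5.10 log2), the plasminogen activators, and PLAUR (1.13 and 5.32 log2), the receptor of urokinase, were higher as well. MMP16, a membrane-bound metalloproteinase, was the lower one and read 5.24 and 4.93 in MDA-MB-231, against 9.83 and 9.49 in BT549 and 8.74 and 8.63 in MDA-MB-157, with 1 of its 2 tested probes called.

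Among the integrins, the cell's receptors for matrix, 6 of 17 tested genes of 20 listed were higher and 2 were lower. That is 47.1% of the tested genes against 14.6% of all genes. Of those tested, 1 (ITGA1) entered only through MDA-MB-231, so that it could only be higher. ITGA2, the collagen receptor subunit, read 12.17 and 12.71 in MDA-MB-231, against 5.46 and 5.12 in BT549 and 5.52 and 5.50 in MDA-MB-157. ITGB4, the laminin receptor subunit of hemidesmosomes, read 9.26 and 9.82 in MDA-MB-231, against 4.69 and 4.66 in BT549 and 6.37 and 6.56 in MDA-MB-157. ITGA1 (at least 11-fold and 11.2-fold) was higher, whereas ITGA4 (-2.00 and -2.43 log2) and ITGA11 (-1.76 and -3.74 log2) were lower. The ITGA11 call was lost without background correction (smaller log2 difference -0.95). ITGA11 is a receptor for fibrillar collagens.

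Cytokines and chemokines followed the interleukin-1 genes, with 15 of 31 tested genes of 40 listed higher and 1 lower. That is 51.6% called against 14.6% of all genes. Of those tested, 6 entered only through MDA-MB-231, so that they could only be higher. LTB, which encodes lymphotoxin beta, read 10.51 and 10.89 in MDA-MB-231, against 4.62 and 4.64 in BT549 and 4.64 and 4.77 in MDA-MB-157. IL6 (4.51 and 6.30 log2), CSF3 (at least 16.1-fold and at least 17.7-fold), CXCL8 (3.65 and 7.81 log2), CXCL2 (3.18 and 6.62 log2) and TNF (at least 2.24-fold and at least 2.45-fold) were higher as well. CCL2, a monocyte chemokine, was the lower one and read 8.76 and 9.45 in MDA-MB-231, against 11.27 and 11.72 in BT549 and 12.25 and 12.59 in MDA-MB-157. NF-kB is a family of transcription factors held inactive by inhibitors of the NFKBIA type and known to act on many of these cytokine genes. Of 23 tested NF-kB subunits and targets of 25 listed, 14 were higher and 0 lower, with median log2 differences of 1.25 from BT549 and 2.34 from MDA-MB-157, and 2 entered only through MDA-MB-231. PTGS2, the inducible prostaglandin synthase, read 12.46 and 11.67 in MDA-MB-231, against 6.66 and 6.81 in BT549 and 5.69 and 5.95 in MDA-MB-157. C3, the central complement component, read 8.65 and 9.95 in MDA-MB-231, against 5.03 and 5.27 in BT549 and 4.88 and 4.92 in MDA-MB-157. NFKBIE, an inhibitor of NF-kB, read 9.51 and 9.91 in MDA-MB-231, against 6.16 and 6.66 in BT549 and 6.01 and 6.41 in MDA-MB-157. In MDA-MB-468 and SUM 149 the means were 4.94 and 12.25 for PTGS2, 6.8 and 12.08 for C3 and 7.46 and 8.91 for NFKBIE. High levels of PTGS2 and C3 were thus not particular to MDA-MB-231. The inhibitor NFKBIA (1.25 and 1.96 log2) and the subunits NFKB1 (1.25 and 1.57 log2) and NFKB2 (1.33 and 3.0 log2) were also higher, while RELA (0.26 and 1.10 log2), RELB (0.09 and 2.57 log2) and REL (0.24 and -0.19 log2) were not called.

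The promoters of the NF-kB list were read because NF-kB is known to bind a short motif near its targets. The motif GGGNNTTTC, a core of that motif searched on both strands with N for any base, lies in 4.78% of the 35116 RefSeq promoter windows (GRCh38.p14, 250 bases before to 50 after a start site). It lies in 6 of 20 windows (30%) of higher genes of the list, and in 3 of 13 windows (23.1%) of its genes that were tested and not called. A gene can have several windows, and these windows belong to 5 of 12 higher genes and 3 of 8 genes not called. The following 30-base stretches, 5′ to 3′ on the gene's strand with the match in capitals, are from the subunit genes, an inhibitor and TNIP1, whose protein dampens NF-kB signaling, all of them higher in MDA-MB-231.
NFKB1, chr4:102501300-102501329, plus strand: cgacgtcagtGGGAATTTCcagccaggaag
NFKB2, chr10:102395674-102395703, plus strand: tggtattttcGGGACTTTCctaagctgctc
NFKBIA, chr14:35404907-35404936, minus strand: gctcatcgcaGGGAGTTTCtccgatgaacc
TNIP1, chr5:151081057-151081086, minus strand: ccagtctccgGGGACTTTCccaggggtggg
A match is a description of the letters and no evidence of binding in these cells.

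ERK pathway targets were higher in 15 of 29 tested genes and lower in 0 (of 32 listed, 2 tested only through MDA-MB-231). That is 51.7% called against 14.6% of all genes. The median log2 differences were 1.13 from BT549 and 2.70 from MDA-MB-157. ERK signaling is a kinase cascade that drives growth and induces its own brakes. DUSP4, a phosphatase that dampens it, read 10.46 and 10.58 in MDA-MB-231, against 5.96 and 5.97 in BT549 and 5.23 and 4.73 in MDA-MB-157, and its relatives DUSP5 (3.38 and 4.90 log2) and DUSP6 (2.22 and 5.37 log2) were higher as well. TGFA, a ligand of EGFR, read 9.60 and 9.93 in MDA-MB-231, against 4.80 and 4.73 in BT549 and 4.72 and 4.96 in MDA-MB-157. HMGA1, a chromatin architectural protein, read 14.39 and 14.48 in MDA-MB-231, against 10.94 and 10.92 in BT549 and 10.19 and 10.15 in MDA-MB-157. In MDA-MB-468 and SUM 149 the means were 8.01 and 9.15 for DUSP4, 9.27 and 9.56 for TGFA and 11.74 and 11.7 for HMGA1. A high level of TGFA was thus not particular to MDA-MB-231. HBEGF (5.50 and 3.14 log2), another EGFR ligand, CCND1 (4.16 and 2.34 log2), the cyclin D1 gene, and the feedback inhibitors SPRY4 (2.26 and 4.78 log2) and SPRED1 (2.22 and 2.70 log2) were among the others. Receptor tyrosine kinases went both ways, with 4 of 33 tested genes of 46 listed higher and 4 lower (24.2% against 14.6% of all genes). Of those tested, 2 (MST1R and TIE1) entered only through MDA-MB-231, so that they could only be higher. EGFR (1.25 and 1.67 log2), ERBB3 (2.06 and 2.04 log2) and MST1R (at least 4-fold and at least 4.39-fold) were higher, whereas EPHA5 (at least 6.3-fold and at least 2.02-fold) was lower like DDR2 and PDGFRA.

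The genes on which the study centers were higher too. CDCP1, a transmembrane glycoprotein that Src-family kinases phosphorylate, read 11.84 and 12.08 in MDA-MB-231, against 9.77 and 9.62 in BT549 and 5.24 and 5.26 in MDA-MB-157. By this probe the 3 lines had separate levels, and MDA-MB-231 exceeded BT549 by 4.8-fold and MDA-MB-157 by at least 87.5-fold, and all 4 tested CDCP1 probes were called higher. They differed in size, since the probe that the study used for CDCP1 gave log2 differences of only 1.21 from BT549 and 1.5 from MDA-MB-157. PRKCD, the kinase that CDCP1 recruits, read 11.18 and 11.31 in MDA-MB-231, against 7.75 and 8.12 in BT549 and 8.47 and 8.31 in MDA-MB-157. SRC read 10.15 and 10.50 in MDA-MB-231, against 9.38 and 9.06 in BT549 and 9.30 and 9.25 in MDA-MB-157, only just past the 2-fold limit, and its call was lost without replicate B of untreated MDA-MB-231 (smaller log2 difference 0.88) or of untreated BT549 (0.94), under median scaling (0.91) and without background correction (0.94).

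Interferon-stimulated genes encode the antiviral proteins that cells make in response to interferons. Of 43 tested genes of 45 listed 21 were lower, 2 higher and 20 not called, with 7 lower by more than 4-fold. That is 53.5% called against 14.6% of all genes. The median log2 differences were -1.40 against BT549 and -1.09 against MDA-MB-157. IFI44L read 6.74 and 6.75 in MDA-MB-231, against 11.77 and 13.14 in BT549 and 12.89 and 12.69 in MDA-MB-157. IFI6, which encodes a mitochondrial survival protein, read 8.91 and 8.55 in MDA-MB-231, against 14.04 and 14.74 in BT549 and 13.35 and 12.86 in MDA-MB-157, with 1 of its 2 tested probes called. MX1, a GTPase that restricts viruses, read 10.51 and 10.26 in MDA-MB-231, against 13.78 and 14.49 in BT549 and 14.49 and 14.08 in MDA-MB-157. All 3 remained above background in MDA-MB-231, at lower levels on both arrays than on any of the other 4. In MDA-MB-468 and SUM 149 the means were 5.17 and 10.93 for IFI44L, 7.05 and 10.86 for IFI6 and 11.36 and 10.06 for MX1. Levels this low were thus not particular to MDA-MB-231. ISG15 (-2.90 and -1.64 log2), a ubiquitin-like modifier, the RNA sensors OAS1 (-3.07 and -2.60 log2) and OAS3 (-2.69 and -1.85 log2), RSAD2 (-3.38 and -1.65 log2) and USP18 (-3.69 and -2.76 log2) were lower as well. GBP2 (1.40 and 3.44 log2) and IFI27 (1.11 and 3.90 log2) were the higher ones. The IFI27 call was lost under median scaling (smaller log2 difference 0.78) and rested on 2 arrays, since the smaller log2 difference was 0.45 without replicate A of untreated BT549 and 0.92 without replicate B of untreated MDA-MB-231.

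The core of the interferon response motif, GAAANNGAA, searched on both strands, lies in 8.11% of all 35116 promoter windows. Among the interferon list it lies in 17 of 25 windows (68%) of lower genes, and in 12 of 16 windows (75%) of genes that were tested and not called. These windows belong to 13 of 18 lower genes and 11 of 13 genes not called. The next stretches are from lower genes named above.
IFI44L, chr1:78620274-78620303, plus strand: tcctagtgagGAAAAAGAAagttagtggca
IFI6, chr1:27672329-27672358, minus strand: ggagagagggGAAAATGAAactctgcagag
ISG15, chr1:1013374-1013403, plus strand: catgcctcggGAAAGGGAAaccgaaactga
OAS3, chr12:112938321-112938350, plus strand: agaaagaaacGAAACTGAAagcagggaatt
Capitals mark the match, which is again a description of the letters only.

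HLA genes split by class. Of 19 tested genes of antigen presentation (24 listed, 3 tested only through MDA-MB-231) 7 were higher and 0 lower. That is 36.8% called against 14.6% of all genes. All 7 belong to the class II pathway, which loads peptides from endosomes. HLA-DPA1, a class II chain, read 10.14 and 10.81 in MDA-MB-231, against 4.64 and 4.71 in BT549 and 5.65 and 5.73 in MDA-MB-157. HLA-DRA (2.70 and 2.54 log2), the peptide editors HLA-DMA (3.94 and 1.52 log2) and HLA-DMB (at least 7.92-fold and 5.94-fold) and CTSS (at least 3.37-fold and at least 3.69-fold), the protease that trims the invariant chain, were higher like CD74. Class I genes were not called, among them HLA-B (3.72 and -0.04 log2) and HLA-E (1.19 and 0.17 log2), and B2M, their shared light chain, read 15.06 and 14.97 in MDA-MB-231, against 14.89 and 15.01 in BT549 and 7.82 and 8.13 in MDA-MB-157, so that MDA-MB-157 alone stood apart. HLA genes are polymorphic and alike in sequence, so a probe can bind different alleles unequally. CIITA, the master regulator of class II transcription, was not above background in MDA-MB-231.

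CDKN2A and KLHL9, both among the 12 leading lower genes, are neighbors on the short arm of chromosome 9. The genes around them were then read in the order of the RefSeq gene table, a choice made after their values were seen. From FOCAD to TUSC1 the array tested 10 genes, and 8 of them were called lower in MDA-MB-231 than in both lines. Of all tested genes 6.53% were lower. The 8 include CDKN2A and KLHL9, whose calls led to the region. FOCAD and TUSC1 are the first and last called genes from ACER2 to PLAA, so the genes beside the run could only be uncalled. The count is therefore a description and not a test. The call of DMRTA1 was lost without background correction (smaller log2 difference -0.81) and with an offset of 50 (-0.95). CDKN2A, which encodes the cell cycle inhibitor p16 and the p53 activator ARF, read 4.77 and 4.86 in MDA-MB-231, against 12.62 and 12.53 in BT549 and 10.83 and 11.07 in MDA-MB-157. CDKN2B, its neighbor that encodes the inhibitor p15, read 5.36 and 5.02 in MDA-MB-231, against 10.66 and 11.36 in BT549 and 11.15 and 10.87 in MDA-MB-157. MTAP, the enzyme that salvages methionine from methylthioadenosine, read 5.29 and 5.27 in MDA-MB-231, against 10.16 and 10.00 in BT549 and 9.90 and 9.94 in MDA-MB-157. KLHL9, a substrate adaptor of a ubiquitin ligase, read 4.69 and 5.07 in MDA-MB-231, against 11.03 and 11.11 in BT549 and 11.22 and 11.30 in MDA-MB-157. On the MDA-MB-231 arrays none of these 4 was above background, and the bounds lay between 19.3-fold for MTAP and 121-fold for CDKN2A, where 2 of 3 tested probes were called. FOCAD (at least 7.17-fold and at least 6.53-fold), DMRTA1 (at least 1.77-fold and at least 5.38-fold) and ELAVL2 (at least 28.1-fold and at least 7.51-fold) were also not above background in MDA-MB-231, and TUSC1 (-2.02 and -1.92 log2) was lower but detected.

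The run had 2 exceptions. HACD4, between FOCAD and KLHL9, was detected on all 6 arrays, at 9.62 and 9.50 in MDA-MB-231, against 10.27 and 9.98 in BT549 and 9.64 and 10.27 in MDA-MB-157, and was not called. CDKN2B-AS1, an antisense RNA of the same locus, read 6.24 and 6.38 in MDA-MB-231, against 6.71 and 6.75 in BT549 and 5.87 and 5.23 in MDA-MB-157 and was not called either. The 4 tested genes on either side, ACER2 (-0.25 and -0.48 log2), MLLT3 (0.67 and 0.88 log2), CAAP1 (0.18 and 0.41 log2) and PLAA (-0.55 and 0.18 log2), were not called. The 16 type I interferon genes that lie within the run had no tested probe in any line. In SUM 149 the means were 5.45 for MTAP, 4.94 for CDKN2A, 5.26 for CDKN2B and 10.85 for KLHL9, so that KLHL9 alone of the 4 was above background on both arrays of SUM 149, while in MDA-MB-468 all 4 were above 9. The arrays measured RNA only.

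**Figure D4:**
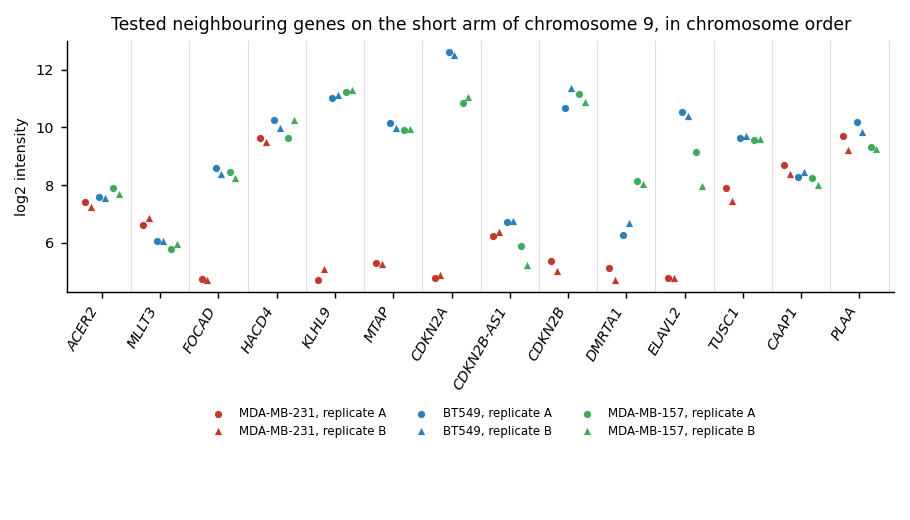
Log2 intensity (y axis) on the 6 untreated arrays of the tested neighboring genes from ACER2 to PLAA on the short arm of chromosome 9, evenly spaced in chromosome order. Each point is 1 array, and the MDA-MB-231 arrays lie clearly lowest in the 8 called of 10 genes from FOCAD to TUSC1, and not in HACD4 and CDKN2B-AS1.

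Few other cell cycle genes were called. Of 36 tested genes of G1/S and replication 3 were lower and 0 higher, and of 38 of G2/M and mitosis 2 were lower and 0 higher, which are 8.33% and 5.26% of the tested genes against 14.6% of all genes. E2F2, a factor that drives replication genes, read 7.45 and 6.80 in MDA-MB-231, against 10.26 and 9.66 in BT549 and 9.34 and 9.19 in MDA-MB-157. CDKN1A, which encodes the inhibitor p21, read 13.29 and 13.50 in MDA-MB-231, against 11.57 and 11.74 in BT549 and 10.91 and 10.81 in MDA-MB-157, with 1 of its 2 tested probes called. RB1, the retinoblastoma gene, separated MDA-MB-231 from BT549, where it was not above background, and did not pass the 2-fold limit against MDA-MB-157, at 8.40 and 8.86 in MDA-MB-231, against 4.90 and 5.00 in BT549 and 7.72 and 7.62 in MDA-MB-157. NF2, the merlin gene, read 4.80 and 4.91 in MDA-MB-231, against 6.96 and 6.57 in BT549 and 6.84 and 5.65 in MDA-MB-157. The NF2 call was lost without replicate A of untreated MDA-MB-157 (smaller log2 difference -0.79), and 1 of 3 tested NF2 probes carried it. Of the list of cell cycle brakes and tumor suppressors, 2 of 23 tested genes were higher and 4 lower, 26.1% against 14.6% of all genes. Of those tested, 1 entered only through MDA-MB-231.

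Genes of the TGF-beta and BMP pathway, which carry signals of secreted growth factors to SMAD proteins, went both ways, with 6 of 34 tested genes higher and 8 lower. That is 41.2% of the tested genes against 14.6% of all genes. Of those tested, 2 (BMP2 and NOG) entered only through MDA-MB-231, so that they could only be higher. The ligand BMP2 read 9.02 and 8.89 in MDA-MB-231, against 5.05 and 4.89 in BT549 and 5.04 and 5.11 in MDA-MB-157. Its secreted antagonist NOG read 9.02 and 8.95 in MDA-MB-231, against 5.08 and 4.94 in BT549 and 5.10 and 5.06 in MDA-MB-157. TGFBR2, a receptor of TGF-beta (2.34 and 3.97 log2), was higher, whereas the ligand TGFB3 (at least 8.55-fold and at least 47.5-fold) and the BMP target ID3 (-4.14 and -3.67 log2) were lower. Of 44 tested genes of the Wnt, Notch and Hedgehog pathways 12 were lower and 5 higher, and 1 of those tested entered only through MDA-MB-231. That is 38.6% called against 14.6% of all genes. NOTCH3, a Notch receptor, read 5.07 and 6.02 in MDA-MB-231, against 10.08 and 9.53 in BT549 and 12.12 and 12.35 in MDA-MB-157. The Notch target HEY1 (-3.85 and -5.67 log2), the Wnt antagonists SFRP1 (at least 9.94-fold and at least 77.7-fold), SFRP2 (at least 23.9-fold and at least 20.2-fold) and DKK3 (-3.76 and -5.93 log2), the ligand WNT5A (at least 25.1-fold and at least 4.56-fold) and the Hedgehog transducer SMO (at least 5.24-fold and at least 12.8-fold) were lower, whereas the Wnt antagonist DKK1 (5.26 and 4.04 log2) was higher.

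A list of genes known from bone- and lung-seeking sublines of MDA-MB-231 itself had 9 of 24 tested genes higher and 3 lower, against 8.03% and 6.53% of all genes, and 3 of those tested entered only through MDA-MB-231. CXCR4, the receptor for the chemokine CXCL12, read 10.44 and 10.80 in MDA-MB-231, against 4.63 and 4.67 in BT549 and 4.69 and 4.68 in MDA-MB-157. MMP1, PTGS2, HBEGF, CXCL1 and CCN2 (1.47 and 1.49 log2) were also higher, and SPARC was lower. Since these genes were described in this line, a high level here is not independent of the choice of the list. Of 21 tested cancer-testis antigens, proteins otherwise made in the germ line, 3 were higher and 2 lower, against 8.03% and 6.53% of all genes, and 3 of those tested entered only through MDA-MB-231, so that they could only be higher. PAGE5 read 11.78 and 11.87 in MDA-MB-231, against 4.82 and 4.83 in BT549 and 5.29 and 5.41 in MDA-MB-157, and SPANXB1 read 13.15 and 13.28 in MDA-MB-231, against 5.76 and 5.87 in BT549 and 6.53 and 6.46 in MDA-MB-157. The SPANX genes are near-identical copies and their probes can share RNA. PRAME (at least 13.1-fold and at least 4.06-fold) and MAGED4 were the lower ones, and MAGED4 lost its call without replicate B of untreated MDA-MB-231 or replicate A of untreated MDA-MB-157. For PRAME 2 of 3 tested probes were called. CD24, a surface marker that is low in cells with stem-like features, read 10.04 and 9.82 in MDA-MB-231, against 12.95 and 13.07 in BT549 and 12.60 and 12.08 in MDA-MB-157, while CD44, its usual counterpart, read 14.28 and 14.33 in MDA-MB-231, against 14.02 and 14.28 in BT549 and 13.35 and 13.11 in MDA-MB-157 and was not called against BT549.

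Of 19 tested NRF2 targets and aldo-keto reductases, 2 were higher and 4 lower, 31.6% against 14.6% of all genes. The higher ones were TALDO1, a pentose phosphate enzyme (1.90 and 1.94 log2), and TXNRD1, a thioredoxin reductase (2.05 and 1.14 log2). AKR1C2, an aldo-keto reductase with near-identical relatives, read 5.89 and 5.51 in MDA-MB-231, against 13.03 and 12.72 in BT549 and 7.98 and 7.59 in MDA-MB-157, and 1 of its 3 tested probes was called. NQO1, a quinone reductase and NRF2 target, was lower (-2.35 and -1.09 log2), and its call was lost without replicate B of untreated MDA-MB-231 (smaller log2 difference -0.97) or replicate A of untreated MDA-MB-157 (-0.98). Only 1 of 2 tested NQO1 probes was called. Of 20 tested genes of cholesterol synthesis, HMGCS1 (-2.89 and -1.18 log2) and SQLE (-2.65 and -1.91 log2) were lower and 0 were higher. That is 10% of the tested genes, below the 14.6% of all genes. Of 21 tested aldehyde dehydrogenases and stem cell markers, 2 were higher and 2 lower, 19% against 14.6% of all genes. ALDH1A3 (2.43 and 1.70 log2) and ALDH2 (2.53 and 1.75 log2) were higher, whereas ALDH1L2 was lower like CD24 (at least 2.1-fold and at least 1.75-fold), a call that was lost without background correction (smaller log2 difference -0.74). Of the receptors that define TNBC, ERBB2 read 9.79 and 9.80 in MDA-MB-231, against 9.41 and 9.36 in BT549 and 9.81 and 9.92 in MDA-MB-157, ESR1 was not above background in MDA-MB-231 or BT549, and PGR was above background only in MDA-MB-157 (5.96 and 5.88).

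Whether the differences held in other cultures of the same lines was read from the WHF-treated arrays. They lay on the same chips, so the chip is again not separated from the line. Among WHF-treated cultures 1607 probes were higher in MDA-MB-231 than in both lines (6.61%) and 1323 were lower (5.44%). Of the 3088 probes called in untreated cultures, 2019 (65.4%) were called alike in WHF-treated ones, 2918 had the same sign against both lines, and 1, a probe of C6orf58, was called the other way. CST1 read 14.65 and 14.26 in WHF-treated MDA-MB-231, against 4.70 and 4.77 in WHF-treated BT549 and 4.93 and 4.69 in WHF-treated MDA-MB-157. COL5A2 read 4.56 and 4.70 in WHF-treated MDA-MB-231, against 13.12 and 13.20 in WHF-treated BT549 and 12.90 and 13.28 in WHF-treated MDA-MB-157. Both kept the separation seen in untreated cultures. For 2812 probes (11.6%) the difference between MDA-MB-231 and the mean of the other lines was itself unlike in WHF-treated and untreated cultures at an adjusted p under 0.1, and 814 of these were among the 3088. The 3088 were called on untreated values that this change subtracts, so a smaller difference is favored among them. The largest change among the named genes was that of CCL2, which differed by -6.36 and -6.32 on the log2 scale in WHF-treated cultures and by -2.39 and -3.31 log2 in untreated ones.

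Some list members that stood apart in untreated cultures did not do so in WHF-treated ones. NFKBIA differed by -1.70 and 0.15 on the log2 scale from BT549 and MDA-MB-157 in WHF-treated cultures, against 1.25 and 1.96 log2 in untreated ones. CXCL1, a neutrophil chemokine, differed by -1.37 and 1.14 in WHF-treated cultures, against 1.16 and 4.86 log2 in untreated ones. The interferon-stimulated OAS2 differed by 0.54 and -0.01, against -1.86 and -1.17 log2, and the metalloproteinase inhibitor TIMP3 by 0.47 and -1.06, against 3.58 and 1.21 log2, in the same order. For all 4 the interaction passed its threshold, with adjusted p from 1.56e-05 to 0.00422, and none was called in WHF-treated cultures. Their choice by untreated calls favors such a loss.

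**Figure D5:**
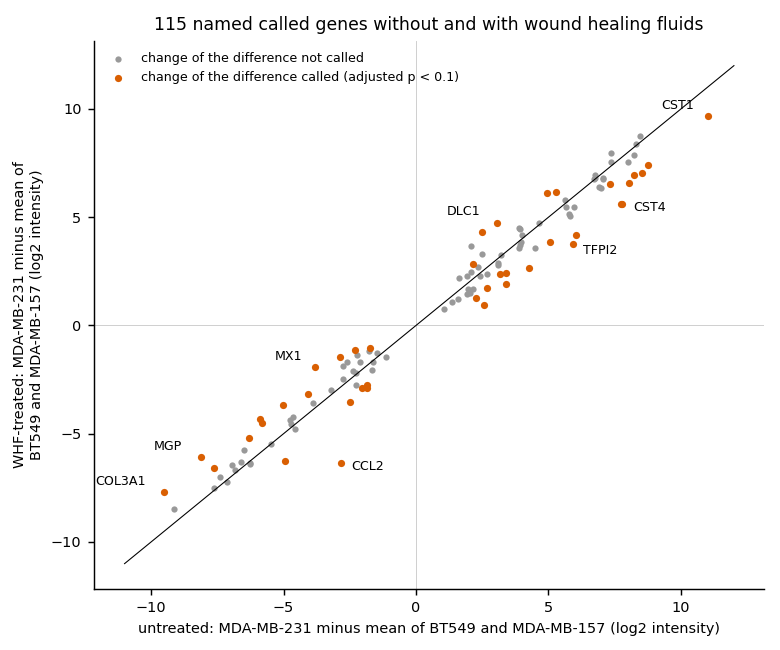
Difference between MDA-MB-231 and the mean of BT549 and MDA-MB-157 in WHF-treated cultures (y axis) and in untreated cultures (x axis), in log2 intensity, for the 115 named genes that were called in untreated cultures. Orange marks the 41 genes whose difference changed with WHFs at an adjusted p under 0.1, CCL2 lies furthest below the line of equal differences, and no plotted gene changed sign.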

How the data were processed

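RNA of 20 arrays from 5 TNBC lines was measured on Illumina beadchips. The authors extracted signals with BeadStudio and deposited, for each array, the average bead signal, an intensity without normalization or background correction, together with a detection p-value computed from negative control probes. The authors also deposited intensities after quantile normalization over all arrays on the linear scale, which were used as an alternative. The bead table holds 47319 probes and the normalized one 47323. The supplied annotation belongs to a different array version than the 3.0 given in the methods, so that some probes may lack a name. Of the tested probes, 18262 had 1 gene symbol, updated through the Entrez number.

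Bead signals were background-corrected with the normexp model of limma 3.58.1 (R 4.3.3), which took its controls from the detection p-values, with an offset of 16, and were then quantile-normalized and converted to log2. A probe was tested when its detection p was under 0.05 on both untreated arrays of at least 1 of the 3 lines. The fit held 10 groups of 2 arrays with 10 residual degrees of freedom, and Benjamini-Hochberg adjustment ran over all 24311 tested probes in each contrast. A gene is given by the probe with the highest mean over the 6 untreated arrays. The change of a line difference with WHFs was an interaction contrast in the same fit. Simulated arrays had the same spread, but all lines shared 1 mean per probe apart from the seeded changes. There, 87 of 100 probes changed by 1.5 log2 units against both lines and 98 of 100 changed by 2.5 were called. Among 24111 other probes, of which 100 differed from BT549 only, 0 were called. The lines of the data differ in far more probes, so this gives no error rate for them.

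The genes named are the 12 highest and 12 lowest called genes by the smaller of the 2 differences, up to 3 called genes each way of each of 26 lists, and markers that check the lines. Other members of the lists are named by their values as examples. The comparison, the lists and the rule were chosen with earlier results of these data known. Lists were written from general knowledge. Alternatives changed the normalization, the background correction, the filter, the thresholds, the arrays in the fit and the replicate block, and left out each untreated array in turn. Arrays have no counting depth, and 2 arrays a line limit the precision. A comparison with the basal-like lines would share the untreated MDA-MB-231 arrays, so calls against them are not given and their levels are means of 2 arrays.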

Additional observations from a re-analysis of the deposited data

Results flagged for a closer look

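The difference between MDA-MB-231 and the mean of BT549 and MDA-MB-157 changed with WHFs at an adjusted p under 0.1 in 41 of the 115 named genes, by the interaction contrast of the limma fit. Each value below is the difference in WHF-treated cultures minus that in untreated cultures, in log2 units, over 2 arrays per line and treatment. All 115 genes were called by their untreated differences, and those same differences are subtracted here. A smaller difference in WHF-treated cultures is therefore favored by the choice of the genes. The count of 41 cannot be set against the share over all tested probes.

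Among genes that were higher in untreated MDA-MB-231, a negative value means that the lead was smaller in WHF-treated cultures. This held for CST4 (-2.18 ± 0.27 SE, adjusted p of 0.000183), PRSS2 (-2.15), TFPI2 (-2.13), LTB (-1.84), C3 (-1.64), PECAM1 (-1.62), NFKBIE (-1.49), LCN2 (-1.47) and PRSS3 (-1.46). It also held for KRT19 (-1.35), CST1 (-1.33), IL1B (-1.28), DUSP4 (-1.18), CD68 (-1.02), KRT7 (-1.0), MST1R (-0.93), TGFBR2 (-0.79) and MMP9 (-0.78). The lead was larger for CDKN1A (0.70), HLA-DPA1 (0.85), TGFA (1.16), DLC1 (1.67 ± 0.19 SE, adjusted p of 7.83e-05) and COL8A1 (1.82).

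Among genes that were lower in untreated MDA-MB-231, a positive value means that the gap was smaller in WHF-treated cultures. The matrix genes MGP (2.03), COL3A1 (1.83) and COL1A1 (1.11) and the interferon-stimulated genes MX1 (1.89), IFI44L (1.58) and IFI6 (1.36) were of this kind. So were EPHA5 (1.39), CDKN2B (1.33), FSTL1 (1.18), GAS1 (1.02), MMP16 (0.92) and NQO1 (0.67). The gap was larger for CCL2 (-3.49 ± 0.41 SE, adjusted p of 0.000125), SFRP2 (-1.31), E2F2 (-1.05), MCM4 (-1.04), HMMR (-0.91) and HMGCS1 (-0.86). EPHA5 and MMP16 were not above background in untreated MDA-MB-231, nor was CDKN2B, MGP, COL3A1 or SFRP2, and CST1, CST4, PRSS2, PRSS3, KRT19, LCN2, IL1B, LTB, C3, MMP9, MST1R, DLC1 and TGFA were not above it in untreated BT549 or MDA-MB-157. DUSP4, KRT7 and PECAM1 were not above it in untreated MDA-MB-157, nor HLA-DPA1 in untreated BT549, so that for all these genes one side of the untreated difference is only a bound. For 2812 of 24311 tested probes (11.6%) such a change was called, and 814 of them were among the 3088 probes that set MDA-MB-231 apart. Whether WHFs moved MDA-MB-231 or the other lines was not tested here.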

How the results depend on the processing

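The counts of higher and of lower probes, and of probes called against BT549 and against MDA-MB-157 alone, stayed within 1.5 times their values under median scaling, an offset of 50, fits of the 6 or of the 10 untreated arrays, a filter of 10 of 20 arrays, no filter, an adjusted p under 0.01, an intensity trend and every left-out array. With the authors' quantile-normalized intensities, which hold no background correction, they were 1096, 704, 3983 and 4376, and 1187 of the called probes were called alike among WHF-treated cultures. All 1800 probes called there were among the 3088, 58.3% of them. Bead signals without background correction gave 1092, 699, 3958, 4352 and 1177. Testing only probes detected on all 6 untreated arrays, which leaves out genes that are off in a line, gave 769, 765, 3671, 3993 and 905, and a limit of 4-fold gave 670, 388, 2190 and 2474. Leaving out 1 array at a time gave 1712 to 1840 higher and 1329 to 1397 lower probes. Among the lists, the filter on all 6 arrays left 5 lower mesenchymal, 2 lower fibroblast, 4 higher cytokine and 5 higher protease genes, 1 higher keratin and 1 higher junction gene. The 4-fold limit left 7 lower interferon-stimulated genes, 6 higher NF-kB genes, 9 higher proteases and 2 higher keratins. Median scaling turned the balance to 1533 higher and 1581 lower probes and shifted the median of tested probes to -0.158 against BT549 (-0.043 with quantile normalization), to which its differences are relative.

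The fit with a replicate block, that is with A and B as paired labels, gave 1736 higher and 1353 lower probes and changed no call among 119 named genes. Same-lettered deviations from the group means correlated at -0.0031, 0.134 and -0.0921 between the 3 pairs of lines, so the letters were not taken as pairs. Of these 119, none reversed under any alternative. Without background correction 10 lost their call, among them NF2, SRC, GATA3, ITGA11 and DMRTA1, and under median scaling IFI27, MCM6 and SRC did. Leaving out 1 array at a time lost at most 6, among IFI27, IL13RA2, KRT8, MAGED4, MCM6, NF2, NQO1 and SRC. Arrays near background limit the precision, as a bound replaces a fold there.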

Other observations

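Genes outside the lists were read among the largest differences, and the ones given here were chosen after their values were seen. FOXA2, a transcription factor of endoderm, was higher than in BT549 and MDA-MB-157 by at least 68.1-fold and at least 74.6-fold and SPDEF, an ETS factor of secretory epithelium, by at least 19.4-fold and at least 21.2-fold. AGR2, a disulfide isomerase of mucus-secreting cells, was higher by at least 34.4-fold and at least 37.6-fold and TMPRSS2, a serine protease of luminal epithelium, by at least 13.2-fold and at least 14.4-fold. All 4 were above background on both MDA-MB-231 arrays and on none of the other 4. LCP1 (24.1-fold and at least 55.6-fold), SRGN (18.9-fold and at least 152-fold), LAPTM5 (at least 15.1-fold and at least 16.6-fold) and ALOX5AP (at least 33.5-fold and at least 36.7-fold), each known from blood cells, were higher as well, while the leukocyte marker PTPRC was at background. The part of other cells was not tested.

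On the lower side stood MGMT, the gene of a DNA repair enzyme for alkylated guanine, lower by at least 23.3-fold and at least 20.8-fold, and GSTT1, a glutathione transferase, lower by at least 25.3-fold and at least 24.4-fold. Both were at background on the MDA-MB-231 arrays and above it on the other 4. PHGDH, the first enzyme of serine synthesis, differed by -4.67 and -4.06 log2 units and remained detected in MDA-MB-231. The developmental factors EBF1 (at least 26.5-fold and at least 28.1-fold), LHX2 (at least 27.9-fold and at least 10.1-fold), FOXD1 (at least 72.7-fold and at least 23-fold) and PAX6 (at least 11-fold and at least 7.96-fold) were at background in MDA-MB-231.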
